A study of Saccharomyces cerevisiae with 18 samples.

Results

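Chromosome V of Saccharomyces cerevisiae was followed as a set of 285 genes, of 6600 in the expression tables. Its genes are named YEL on the left arm and YER on the right arm, and a gene entered the set when its raw counts summed to 180 or more over the 18 libraries. Of 323 identifiers with such a name, 13 were left out by name and 25 fell under the minimum, which left 80 genes on the left arm and 205 on the right. The chromosome was picked because its genes were lower in strain LP118 than in the other strains, so every value of LP118 against another strain is given as a description, with no test, and supports nothing. The genes nearest under the minimum were YER137W-A, YER181C and YEL018C-A, with summed counts of 140, 174 and 179, and those nearest above it were YER084W-A, YEL009C-A and YEL010W, with 229, 245 and 259. All 285 passed the filter on low counts. The 13 genes left out by name had a median log2 fold change of -1.89 in LP118 against LP085-Vc at 6 h, and 12 of them lay below 0.

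The strains LP085-Vc, LP104-17 and LP118 all produce diosgenin, a plant steroidal sapogenin, and all are labelled with the background BY4742, a laboratory strain. The labels give no other genotype, so neither the introduced genes nor the steps from 1 strain to another are known here. Each strain was grown in flasks of SD complete medium with 2% w/v glucose and taken at 6 h and at 24 h, with 3 libraries of RNA for each of the 6 groups. The labels do not state that the libraries within a group were grown apart, and a p-value here speaks only to the scatter among the libraries, part or all of which may be technical. In such bulk samples, fewer cells of a kind and less RNA in each cell cannot be told apart.

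Genes that work together in yeast are mostly scattered over the chromosomes, so chromosome V carries a cross-section of the cell's functions rather than a pathway. It holds genes for ribosome assembly, amino acid synthesis (with GCN4, the transcription activator of that pathway), mitochondria, secretion and DNA repair. Most ribosomal proteins are encoded by a pair of near-identical copies on different chromosomes, which gives several of its genes a natural partner elsewhere. DNA was not measured in these samples.

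Library totals ran from 5117869 to 7548113 counts, and 6235 to 6315 genes had at least 1 count. LP118 libraries at 6 h were the shallowest, at 5117869 to 5333640 counts. BY4742 is a haploid of mating type alpha, and the summed level of 4 alpha-specific genes ran from 467 to 1932 CPM over the libraries, where CPM are counts scaled to the same library size, while 6 genes specific to the a type summed to 45.2 to 105 CPM, with none of either list at 0. A list of 5 genes of haploid cells summed to 368 to 389 CPM in LP118 at 6 h and 324 to 360 CPM at 24 h. Those sums were 462 to 483 and 514 to 566 CPM in LP085-Vc, and 454 to 485 and 388 to 400 CPM in LP104-17. A single biological coefficient of variation fitted over all tested genes was 11.2%. Some members spread far more within a group. In LP104-17 at 6 h YEL034C-A had 357, 662 and 211 CPM and YEL053W-A had 88.8, 258 and 41.7 CPM. Differences are log2 fold changes from a single model of all 18 libraries, each printed with its standard error (SE) after ±, or alone where several genes or lists are set side by side.

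The 5 promoter windows show members that lay far above or far below the rest of the chromosome. Each runs from 250 bases before the start codon to 50 bases after it in the RefSeq sequence of build R64, plus strand, 5′ to 3′. SNU13 (chrV:101693-101992), LCP5 (chrV:414231-414530) and RPS26B (chrV:423702-424001) are shown because they stood above 0 in LP118 on a chromosome that lay below it. RGI1 (chrV:291816-292115) and SPI1 (chrV:468120-468419) are shown because they were among the lowest members. Capitals mark matches on either strand to 4 motifs: GATGAG, the core of the PAC element of ribosome assembly genes; AAAATTTT, the core of the RRPE element of the same genes, which reads alike on both strands; AGGGG, the stress response element; and TGACTC, the site of Gcn4.
SNU13: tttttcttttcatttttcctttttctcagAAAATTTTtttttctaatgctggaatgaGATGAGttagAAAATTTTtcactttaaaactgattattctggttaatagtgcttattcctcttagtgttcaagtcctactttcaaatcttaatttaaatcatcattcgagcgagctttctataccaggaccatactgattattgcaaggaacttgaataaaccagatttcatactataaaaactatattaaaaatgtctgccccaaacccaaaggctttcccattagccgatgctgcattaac
LCP5: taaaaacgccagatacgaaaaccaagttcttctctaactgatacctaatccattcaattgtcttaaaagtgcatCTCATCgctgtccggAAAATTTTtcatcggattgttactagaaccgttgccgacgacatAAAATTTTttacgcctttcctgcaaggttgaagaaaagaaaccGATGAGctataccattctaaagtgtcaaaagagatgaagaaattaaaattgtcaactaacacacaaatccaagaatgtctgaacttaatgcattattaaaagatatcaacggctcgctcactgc
RPS26B: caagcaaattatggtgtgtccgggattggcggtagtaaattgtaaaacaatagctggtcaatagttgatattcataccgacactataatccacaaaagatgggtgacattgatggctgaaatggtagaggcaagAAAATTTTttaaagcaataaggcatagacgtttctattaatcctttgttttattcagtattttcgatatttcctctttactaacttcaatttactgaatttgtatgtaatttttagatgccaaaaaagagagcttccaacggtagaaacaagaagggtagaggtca
RGI1: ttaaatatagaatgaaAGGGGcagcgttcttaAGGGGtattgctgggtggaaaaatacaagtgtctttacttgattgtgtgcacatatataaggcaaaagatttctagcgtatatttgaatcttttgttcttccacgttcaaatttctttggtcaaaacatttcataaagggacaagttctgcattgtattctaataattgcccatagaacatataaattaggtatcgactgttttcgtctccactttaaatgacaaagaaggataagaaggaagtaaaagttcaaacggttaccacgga
SPI1: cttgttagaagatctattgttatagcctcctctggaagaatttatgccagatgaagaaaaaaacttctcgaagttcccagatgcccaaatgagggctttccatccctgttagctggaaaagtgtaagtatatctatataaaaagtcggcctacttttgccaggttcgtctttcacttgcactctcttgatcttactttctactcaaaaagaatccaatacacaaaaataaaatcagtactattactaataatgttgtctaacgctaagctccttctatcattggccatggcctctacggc

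The SNU13 window held GATGAG at 193 bases before the start codon and AAAATTTT at 221 and 183 bases before it. The LCP5 window, which lies between LCP5 and the oppositely transcribed NSA2, held GATGAG at 74 bases and its reverse complement at 176 bases before the start, with AAAATTTT at 161 and 117 bases. RPS26B had AAAATTTT at 116 bases, RGI1 had AGGGG at 234 and 218 bases, and SPI1 had none of the 4 motifs in this window. Of 5897 windows of this length over all genes, 19.9% held GATGAG, 9.16% AAAATTTT, 22.0% AGGGG and 8.12% TGACTC. Among the 261 members with a window the shares were 22.2%, 10.3%, 25.3% and 9.96%. A match describes these letters and does not show that a factor binds there.

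The 285 members together took 4.56% ± 0.0296 (SD, n = 3) of all counts in the LP118 libraries of 6 h and 4.73% ± 0.100 in those of 24 h. The LP085-Vc shares were 7.25% ± 0.0607 and 7.26% ± 0.0378, and those of LP104-17 were 7.40% ± 0.0429 and 7.24% ± 0.0465. The median member stood at -0.96, -0.98 and -0.88 on the log2 scale in the LP118 libraries at 6 h, relative to the LP085-Vc mean at the same time, and at -1.0, -1.04 and -1.04 at 24 h. The 6 LP118 libraries therefore lay together, close to -1, and no library of another strain came near them. The 6 LP104-17 libraries lay between -0.05 and 0.01.

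**Figure D1:**
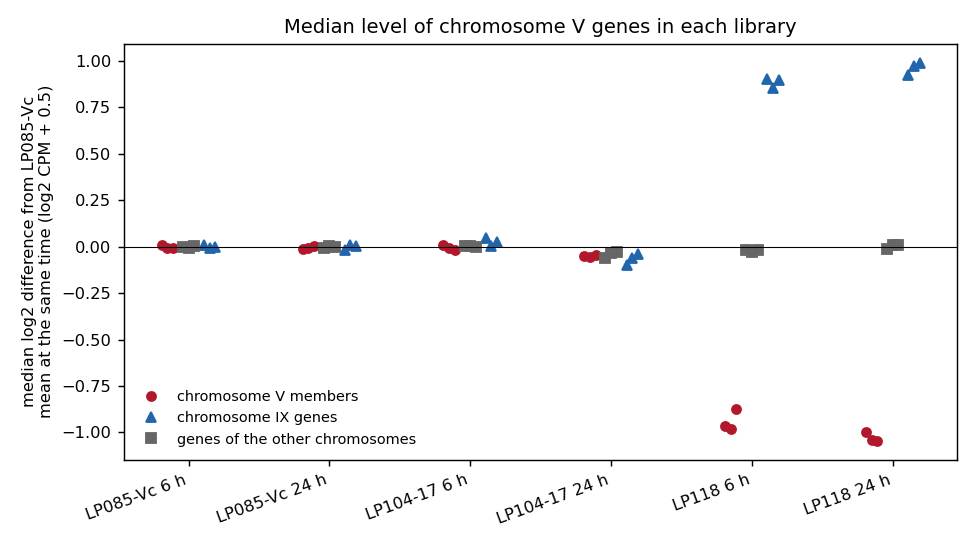
Median log2 difference of each library from the LP085-Vc mean of its time (vertical axis, log2 CPM + 0.5) for the 285 chromosome V members, chromosome IX genes and the genes of the other chromosomes, by group along the horizontal axis, with 1 point for each library. Chromosome V points of LP118 sit between -1.04 and -0.88, while those of LP104-17 and LP085-Vc sit near 0.

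Members were lower in LP118 in each of its 4 comparisons. The median log2 fold change was -0.97 at 6 h and -1.08 at 24 h against LP085-Vc, and -0.97 and -0.97 against LP104-17, which as folds are 0.509, 0.474, 0.512 and 0.510. Over all 6131 tested genes the medians were -0.04, -0.0052, -0.03 and 0.03. Wherever 4 values stand in a row they keep that order. The 2 comparisons of a time share the LP118 libraries and are not independent. Below 0 lay 243, 214, 252 and 238 of the 285 members.

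Members whose 3 LP118 libraries were all below the 3 of the other strain were counted. Against LP085-Vc there were 225 at 6 h (78.9% of members, beside 35.9% of all tested genes) and 198 at 24 h (69.5%, beside 40.6%). Against LP104-17 there were 227 at 6 h (79.6%, beside 32.0%) and 223 at 24 h (78.2%, beside 35.1%). Members whose LP118 libraries were all above numbered 28 (9.82%, beside 34.2%), 53 (18.6%, beside 39.6%), 22 (7.72%, beside 31.0%) and 33 (11.6%, beside 37.1%). These contrasts chose the chromosome, and nothing is read from the counts.

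The members were not squeezed together around that median. Their interquartile range was 0.955 and 1.68 log2 units against LP085-Vc at 6 h and 24 h, and 0.750 and 1.19 against LP104-17. For the 5600 tested genes outside chromosomes V and IX it was 1.03, 1.65, 0.814 and 1.09. Chromosome V genes thus spread about as widely as other genes, around a centre placed lower. Within 0.5 log2 units of their own median lay 50.5% of members and 49.4% of those other genes against LP085-Vc at 6 h.

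Among the other chromosomes IX had a median far from 0 in the opposite direction, with medians over 227 tested genes of 0.89 and 1.01 against LP085-Vc and 0.92 and 1.02 against LP104-17. Medians of the other 14 ran from -0.19 (chromosome I) to 0.03 (XII) against LP085-Vc at 6 h and from -0.17 (XI) to 0.19 (III) at 24 h. Against LP104-17 they ran from -0.20 (I) to 0.04 (XIV) and from -0.11 (XI) to 0.14 (III). No chromosome shift of this size was seen between LP104-17 and LP085-Vc, where the median of chromosome V was -0.01 at 6 h and -0.04 at 24 h.

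**Figure D2:**
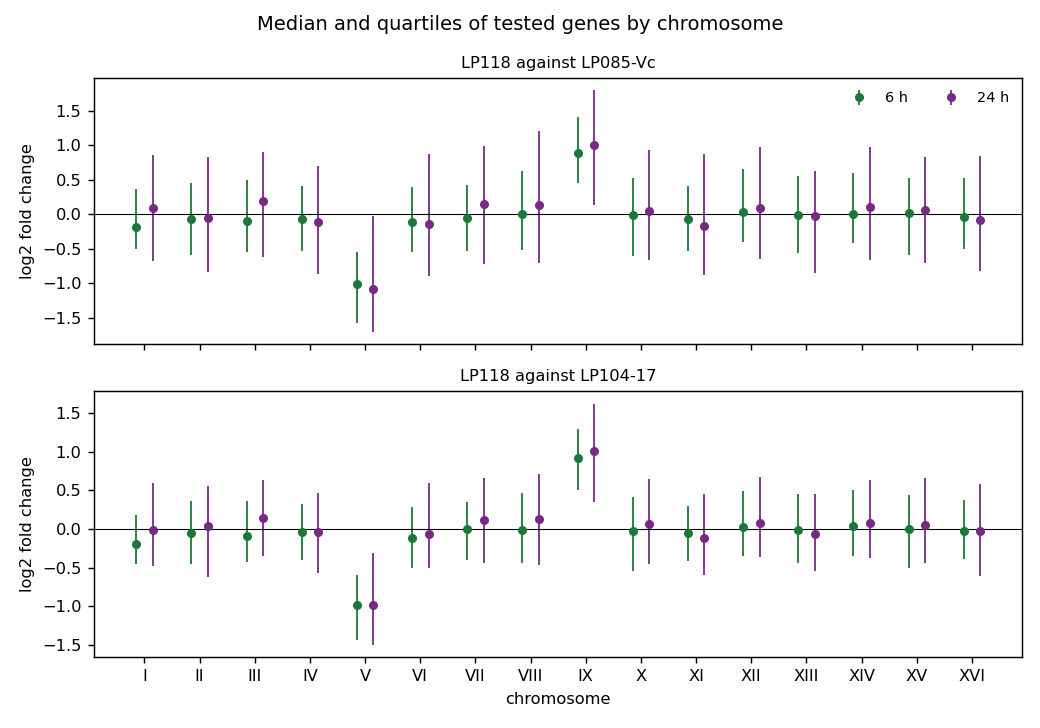
Median (point) and quartiles (line) of log2 fold change over the tested genes of each nuclear chromosome, for LP118 against LP085-Vc (top) and LP104-17 (bottom) at 6 h and 24 h. Over its 304 tested genes, members and others, chromosome V has medians between -1.08 and -0.99, chromosome IX between 0.89 and 1.02, and the other 14 lie between -0.20 and 0.19.

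The lower level ran along the whole chromosome, which is 577 kb long with its centromere at 152 kb. In windows of 50 kb, 12 of 12 medians lay below 0 in each comparison. They ran from -1.16 to -0.60 and from -1.36 to -0.47 against LP085-Vc at 6 h and 24 h, and from -1.15 to -0.68 and from -1.17 to -0.66 against LP104-17, with fewer than 20 members in 2 windows. The window from 50 to 100 kb, with 25 members, was the highest in 3 of the 4 comparisons. In 191 such windows outside chromosomes V and IX the medians ran from -0.56 to 0.53, -0.71 to 0.92, -0.80 to 0.50 and -0.54 to 0.70. The highest window of chromosome V lay above the lowest window elsewhere against LP085-Vc at 24 h and against LP104-17 at 6 h, and below it in the other 2 comparisons.

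Both arms were lower. The 80 left arm members had medians of -1.01 and -0.73 against LP085-Vc at 6 h and 24 h and -1.01 and -0.77 against LP104-17, and the 205 right arm members -0.92, -1.13, -0.96 and -1.06. The 20 members nearest the left end had medians between -1.19 and -1.08, the 20 nearest the right end between -1.13 and -0.79, and the 20 on either side of the centromere between -1.16 and -0.75. Position along the chromosome ranked with fold change at a Spearman rho between -0.04 and 0.06 over 261 members with coordinates. The values are a description, since neighbouring genes share libraries and sometimes promoters.

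The 3 outermost members at each end differed from gene to gene. YEL077C, the outermost on the left, had -0.77 at 6 h and 0.12 at 24 h against LP085-Vc, and -1.01 and -0.49 against LP104-17, and YER188C-A, the outermost on the right, had -0.54 at 6 h and -0.09 at 24 h against LP085-Vc, and -0.91 and -1.04 against LP104-17. YER187W had -2.45 at 6 h and -0.52 at 24 h against LP085-Vc, and -1.60 and -0.67 against LP104-17. YEL073C, near the left end, had 314, 437 and 412 CPM in LP085-Vc, 345, 407 and 268 CPM in LP104-17 and 36.7, 33.4 and 46.1 CPM in LP118 at 6 h. By 24 h the values were 179, 180.4 and 179.8 CPM in LP085-Vc, 188, 209 and 212 CPM in LP104-17 and 170.3, 169 and 166 CPM in LP118. It was thus -3.32 ± 0.16 against LP085-Vc at 6 h and -0.09 ± 0.14 at 24 h. YER188W, near the right end, was likewise lowest in LP118 at 6 h, with -3.29 ± 0.19 and -0.24 ± 0.19, and RMD6 went from -2.27 ± 0.15 to 0.97 ± 0.15. Genes at chromosome ends can belong to families with near-identical copies, and how such reads were assigned is not stated.

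**Figure D3:**
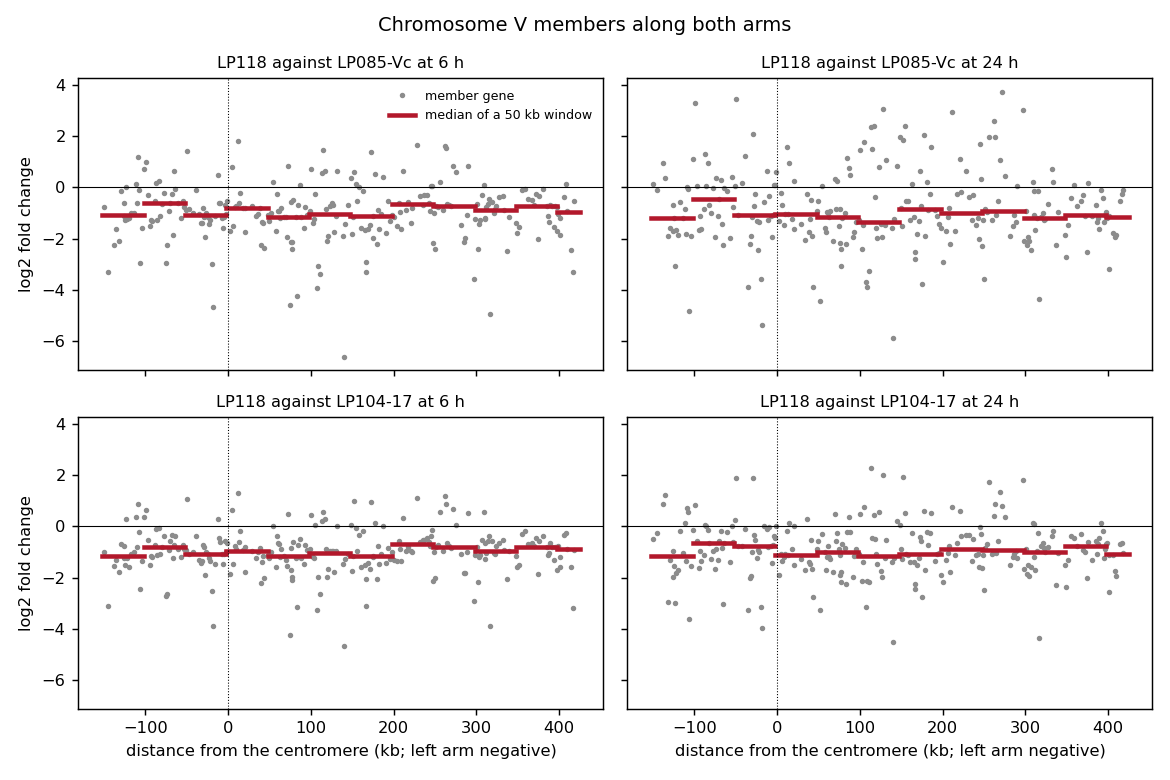
Log2 fold change of each member with coordinates (points) against its distance from the centromere in kb, left arm negative, with the median of each 50 kb window as a bar, for the 4 comparisons of LP118. All 12 window medians lie below 0 in each panel, between -1.36 and -0.47, and single genes scatter from -6.62 to 3.75.

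Members differed somewhat with level and length. By tertiles of mean level, the 95 lowest members (1.94 to 76.9 CPM) had a median of -1.16 against LP085-Vc at 6 h, the middle 95 had -0.82 and the 95 highest (214 to 3848 CPM) had -0.99. Genes of the same levels outside chromosomes V and IX had -0.04, -0.0028 and -0.07. The order differed at 24 h, with -1.25, -1.08 and -0.83 against LP085-Vc and -1.10, -0.98 and -0.75 against LP104-17. Against LP104-17 at 6 h the medians were -1.10, -0.90 and -0.95. By tertiles of coding length, against LP085-Vc at 6 h, the shortest 95 (105 to 678 bases) had -1.17, the middle 95 had -1.10 and the longest 95 (1503 to 6504 bases) had -0.62. Genes of the same lengths outside chromosomes V and IX had -0.21, -0.12 and 0.17, so the members lay -0.96, -0.97 and -0.78 from them. The order by length was therefore present on other chromosomes too.

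Grouped by what they do, chromosome V genes sat below genes of the same role on the other chromosomes in nearly every group. With 10 role lists, the median of the chromosome V genes was lower than that of the same list elsewhere (chromosome IX left out) in 9 lists against LP085-Vc at 6 h and in 10 lists in each of the other 3 comparisons. The exception was plasma membrane transport against LP085-Vc at 6 h, where the 2 medians differed by 0.02. The middle of the 10 differences was -0.93 and -0.97 against LP085-Vc at 6 h and 24 h and -0.94 and -0.95 against LP104-17. The 10 differences ran from -1.90 to 0.02 and from -1.65 to -0.06 against LP085-Vc. Against LP104-17 they ran from -1.45 to -0.55 and from -1.18 to -0.39. These LP118 contrasts chose the chromosome, so the differences only describe how the lower level fell on the roles, which was not the same in every list.

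**Figure D4:**
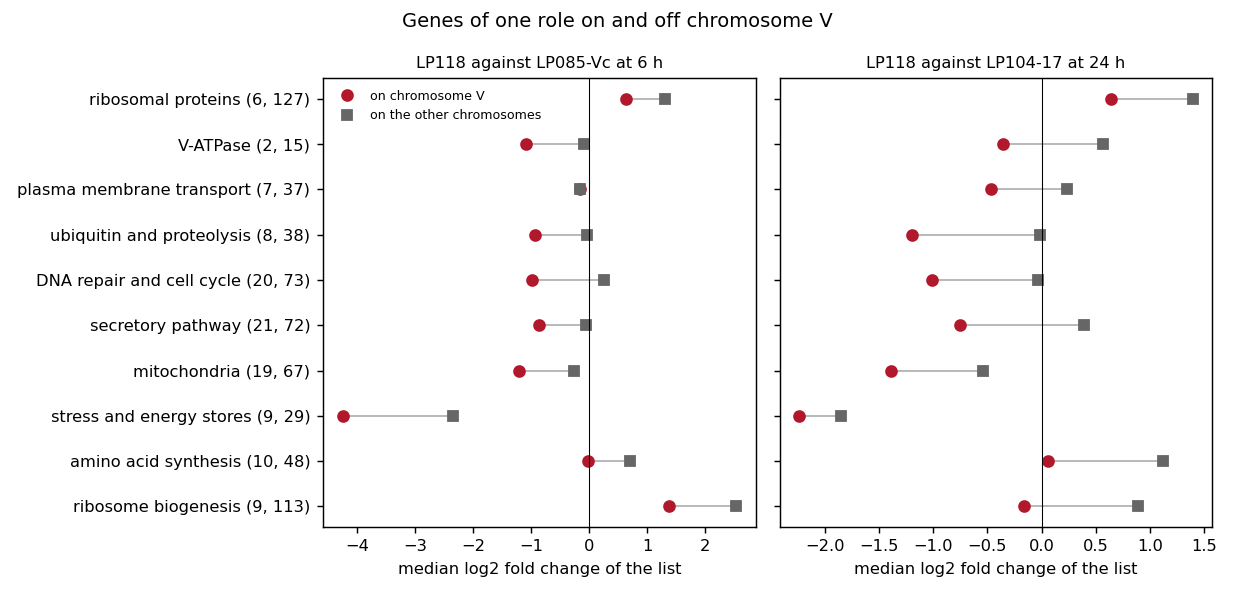
Median log2 fold change of 10 role lists (horizontal axis) for LP118 against LP085-Vc at 6 h and against LP104-17 at 24 h, as circles for chromosome V genes and squares for genes of the same role on the other chromosomes apart from IX, with the number of genes of each in brackets. Circles lie left of the squares in 9 of 10 lists in the left panel and in 10 of 10 in the right.

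Of the 10 lists, mitochondrial genes were the only one whose listed chromosome V members were all below 0 in each of the 4 comparisons. The list did not hold every mitochondrial gene of the chromosome. ALD5, a mitochondrial enzyme left out of it, was above 0 in all 4. The 19 listed had medians of -1.20, -1.67, -1.21 and -1.39, while the 67 elsewhere had -0.26, -0.81, -0.18 and -0.55. OXA1, which inserts proteins into the inner mitochondrial membrane, had 248, 206 and 219 CPM in LP085-Vc, 253, 197 and 239.5 CPM in LP104-17 and 141, 137 and 133 CPM in LP118 at 6 h. At 24 h the values were 227, 249.8 and 255 CPM in LP085-Vc, 219.6, 197 and 199.8 CPM in LP104-17 and 95.4, 102 and 111 CPM in LP118. LP118 was below both other strains in every library at both times, at -0.71 ± 0.10 and -1.25 ± 0.10 against LP085-Vc. PDA1, a subunit of pyruvate dehydrogenase, had -0.74 at 6 h and -1.34 at 24 h against LP085-Vc, and -0.80 and -1.23 against LP104-17. COX15, needed for heme a synthesis, was among the lowest of the list, with -2.41 at 6 h and -2.26 at 24 h against LP085-Vc, and -2.18 and -1.88 against LP104-17.

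Genes of the secretory pathway were below 0 in 20, 15, 21 and 20 of 21, in the same order, with medians of -0.86, -0.71, -0.92 and -0.75; elsewhere the 72 genes had -0.05, 0.44, -0.05 and 0.39. SCS2, which tethers the endoplasmic reticulum to other membranes, had 688, 540.0 and 564 CPM in LP085-Vc, 679, 528 and 617 CPM in LP104-17 and 304, 289.6 and 307 CPM in LP118 at 6 h. The LP118 values did not overlap those of either other strain. SEC3, a subunit of the exocyst, had -0.81 at 6 h and -1.22 at 24 h against LP085-Vc, and -0.93 and -0.89 against LP104-17. PMI40, the mannose-6-phosphate isomerase that feeds protein glycosylation, had -1.51 at 6 h and -0.69 at 24 h against LP085-Vc, and -1.47 and -1.34 against LP104-17, and GEA2, an exchange factor of the Golgi, had -0.09 at 6 h and 1.22 at 24 h against LP085-Vc, and -0.37 and -0.11 against LP104-17.

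Of the 20 genes for DNA repair and the cell cycle, 19, 18, 19 and 18 were below 0, with medians of -0.97, -1.17, -1.01 and -1.01, beside 0.26, 0.21, 0.14 and -0.03 for 73 elsewhere. CIN8, a kinesin motor of the mitotic spindle, had 166, 150.1 and 179 CPM in LP085-Vc, 165, 154 and 176 CPM in LP104-17 and 87.4, 70.1 and 87.1 CPM in LP118 at 6 h. At 24 h it stood at 135, 121 and 150.2 CPM in LP085-Vc, 139, 114 and 113 CPM in LP104-17 and 53.0, 62.2 and 63.4 CPM in LP118. All LP118 libraries were below those of both other strains at both times. Its log2 fold changes were -1.02 at 6 h and -1.18 at 24 h against LP085-Vc, and -1.02 and -1.03 against LP104-17. RNR1, the large subunit of ribonucleotide reductase, was an exception, with 0.39 at 6 h and 1.98 at 24 h against LP085-Vc, and 0.05 and 0.05 against LP104-17. MCM3, part of the replicative helicase, had -0.05 ± 0.13 and -0.01 ± 0.13 against LP085-Vc. Against LP104-17 it had -0.38 ± 0.13 and -0.65 ± 0.13, with all LP118 libraries below those of LP104-17 at both times.

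Of 8 genes for ubiquitin and proteolysis, 7, 8, 7 and 7 were below 0, with medians of -0.94, -1.5, -0.92 and -1.20 beside -0.03, -0.30, -0.07 and -0.01 for 38 elsewhere. RSP5, an essential ubiquitin ligase, had -0.90 at 6 h and -1.29 at 24 h against LP085-Vc, and -0.96 and -1.09 against LP104-17. PRB1, the vacuolar protease B, had 2093, 1637 and 1629.6 CPM in LP085-Vc and 2092, 1950.0 and 1887 CPM in LP118 at 6 h, which overlap, and 8419, 8502 and 8950.2 CPM against 4279, 4847 and 5191 CPM at 24 h, which do not. In LP104-17 it had 1536, 1396 and 1692 CPM at 6 h, all under the LP118 values, and 4782, 4019 and 4367 CPM at 24 h, which overlap them, and the log2 fold changes against that strain were 0.36 and 0.12. The 2 subunits of the vacuolar proton pump were lower at 6 h, at -0.89 for VMA3 and -1.28 for VMA8 against LP085-Vc, and at 24 h VMA3 stood at 0.07 and VMA8 at -1.12.

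Transport genes of the plasma membrane varied from gene to gene. The 7 on chromosome V had medians of -0.15, 0.20, -0.70 and -0.47, beside -0.16, 0.45, 0.02 and 0.23 for 37 elsewhere. CAN1, the arginine permease, had -1.18 at 6 h and -1.86 at 24 h against LP085-Vc, and -1.57 and -1.69 against LP104-17. FCY2, the purine and cytosine permease, was above 0 in 3 comparisons, with 1.47 at 6 h and 1.5 at 24 h against LP085-Vc, and 0.55 and -0.47 against LP104-17. SIT1, which imports iron-loaded siderophores, had 200.03, 166 and 191 CPM in LP085-Vc and 187, 201 and 180.3 CPM in LP118 at 6 h, which overlap, and 2397, 2261 and 2359 against 251, 286 and 291 CPM at 24 h, which do not. FTR1, the iron permease, had 0.08 at 6 h and 0.20 at 24 h against LP085-Vc, and 0.58 and 0.13 against LP104-17.

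Stress and energy store genes were the lowest list on the chromosome and elsewhere. The 9 members had medians of -4.24, -3.26, -3.28 and -2.23, and 29 genes on the other chromosomes had -2.34, -3.20, -1.82 and -1.85. RGI1, induced during respiratory growth and in stress, had 203, 369 and 252 CPM in LP085-Vc, 64.6, 90.5 and 58.0 CPM in LP104-17 and 3.39, 1.04 and 3.83 CPM in LP118 at 6 h. The values at 24 h were 659.6, 744 and 637 CPM in LP085-Vc, 263, 276 and 256 CPM in LP104-17 and 8.38, 11.2 and 14.8 CPM in LP118. Every LP118 library lay far under every other library of its time, and the log2 fold changes were -6.62 at 6 h and -5.89 at 24 h against LP085-Vc, and -4.67 and -4.53 against LP104-17. Its promoter window carries AGGGG 2 times.

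SPI1, a stress-induced cell wall protein, had 817, 924 and 835 CPM in LP085-Vc, 404, 414 and 410.1 CPM in LP104-17 and 27.7, 23.0 and 31.4 CPM in LP118 at 6 h. At 24 h it had 3255, 3392 and 3146 CPM in LP085-Vc, 3113, 3365 and 3174 CPM in LP104-17 and 162, 149.6 and 161 CPM in LP118, so it was higher at 24 h in every strain and lowest in LP118 at both times. GLC3, the glycogen branching enzyme, had 3632, 3635 and 3764 CPM in LP085-Vc, 1402, 1309 and 1442 CPM in LP104-17 and 86.2, 88.1 and 87.5 CPM in LP118 at 24 h. The 3 strains did not overlap. Its log2 fold changes were -4.67 at 6 h and -5.40 at 24 h against LP085-Vc, and -3.89 and -3.99 against LP104-17. The 10 members furthest below 0 in all 4 comparisons were YER067C-A, RGI1, SPI1, GLC3, PIC2, YER066C-A, UBC8, SDD1, MXR1 and GIP2. PIC2 carries copper and phosphate into mitochondria, UBC8 is a ubiquitin-conjugating enzyme, MXR1 reduces oxidised methionine, and GIP2 is a regulatory subunit of the protein phosphatase Glc7. YER067C-A and YER066C-A have no entry in the annotation used, so whether they share reads with a neighbour was not checked.

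In 1 member of the stress list the order turned over with time. GPP2, a glycerol-1-phosphatase of osmotic stress, had 673, 641 and 627 CPM in LP085-Vc, 614, 654 and 699 CPM in LP104-17 and 192, 196 and 186 CPM in LP118 at 6 h. By 24 h it had 44.8, 43.9 and 46.5 CPM in LP085-Vc, 94.9, 96.3 and 95.1 CPM in LP104-17 and 406, 355 and 381 CPM in LP118. LP118 was thus lowest at 6 h and highest at 24 h, at -1.76 ± 0.08 and 3.08 ± 0.08 against LP085-Vc. PHM8, a phosphatase induced by phosphate starvation, was low in LP118 at 6 h, with -4.59 and -4.25, and nearer the chromosome's median at 24 h, with -1.49 and -0.89.

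Ribosome assembly genes went the other way. On the other chromosomes 113 of 113 were above 0 in LP118 against LP085-Vc at both times and against LP104-17 at 6 h, and 110 at 24 h, with medians of 2.54, 2.77, 1.99 and 0.88. The 9 listed on chromosome V were above 0 in 8, 7, 8 and 3 cases, with medians of 1.39, 1.12, 0.89 and -0.17. The list held GLE2, a nuclear pore protein rather than an assembly factor, and these medians include it. GLE2 was the 1 below 0 at 6 h, with -0.82 against LP085-Vc and -0.98 against LP104-17. The chromosome V median minus the other was -1.15, -1.65, -1.10 and -1.05 in that order.

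SNU13, a protein of the U3 particle and the spliceosome, had 143, 157 and 160.3 CPM in LP085-Vc, 205, 204 and 188 CPM in LP104-17 and 308, 458 and 482 CPM in LP118 at 6 h. At 24 h it had 22.7, 23.7 and 26.1 CPM in LP085-Vc, 59.5, 83 and 69.5 CPM in LP104-17 and 314, 246 and 240.2 CPM in LP118, with LP118 highest and LP085-Vc lowest and no overlap. LCP5, which acts with the U3 particle in pre-ribosomal RNA processing, had 40.6, 43.5 and 43.9 CPM in LP085-Vc, 70.2, 69.4 and 62.0 CPM in LP104-17 and 113, 141 and 121 CPM in LP118 at 6 h. LP118 was again highest. NSA2, a factor of large subunit assembly that lies beside LCP5 and is read from the other strand, had 1.61 at 6 h and 2.61 at 24 h against LP085-Vc, and 1.20 and 0.41 against LP104-17. NUG1, a GTPase for nuclear export of the large subunit, had 1.81 at 6 h and 1.59 at 24 h against LP085-Vc, and 1.29 and -0.17 against LP104-17, and UTP7, of the small subunit processome, had 1.39 at 6 h and 0.63 at 24 h against LP085-Vc, and 0.95 and -0.43 against LP104-17.

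Amino acid synthesis genes lay in between. The 10 on chromosome V had medians of -0.01, 1.05, -0.03 and 0.06, and the 48 elsewhere had 0.71, 1.64, 0.52 and 1.11. HIS1, which catalyses the entry step of histidine synthesis, had 654, 693 and 678 CPM in LP085-Vc, 779, 909.8 and 853 CPM in LP104-17 and 949.8, 1039 and 989 CPM in LP118 at 6 h. The levels at 24 h were 70.8, 74.3 and 71.5 CPM in LP085-Vc, 69.8, 82.7 and 78.9 CPM in LP104-17 and 421, 344 and 351 CPM in LP118. The LP118 libraries at 24 h were all above those of both other strains, by 2.37 ± 0.10 and 2.27 ± 0.10. ILV1 (threonine deaminase) and TRP2 (a subunit of anthranilate synthase) were also above 0 in all 4 comparisons, but both overlapped LP104-17 at 6 h. There ILV1 had 579, 613 and 510 CPM in LP118 and 513, 507 and 514 CPM in LP104-17. TRP2 had 531, 556 and 527.5 CPM in LP118 and 545, 499 and 550 CPM in LP104-17. SER3, the entry enzyme of serine synthesis, was under the chromosome's median, with -1.48 at 6 h and -1.30 at 24 h against LP085-Vc, and -1.67 and -1.24 against LP104-17, and GCN4 had 0.47 at 6 h and 0.63 at 24 h against LP085-Vc, and 0.27 and -0.09 against LP104-17.

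The 6 ribosomal protein genes of chromosome V could be set beside their near-identical partners, with 85.8% to 96.5% identity over the coding sequence, so reads may be shared between the copies and each value is uncertain. The list had medians of 0.63, 2.69, 0.33 and 0.64, and the 127 ribosomal protein genes elsewhere had 1.31, 3.16, 1.07 and 1.39. RPS24A, whose partner RPS24B lies on chromosome IX, had a log2 ratio of FPKM to that partner of 1.92 ± 0.13 (SD, n = 3) in LP085-Vc, 1.81 ± 0.17 in LP104-17 and -0.77 ± 0.25 in LP118 at 6 h. At 24 h the ratios were 1.67 ± 0.09, 1.37 ± 0.11 and -0.66 ± 0.08. The chromosome V copy was thus the more abundant per length in both other strains and the less abundant in LP118. RPL34A over RPL34B, also on IX, gave 1.38 ± 0.12, 1.28 ± 0.18 and -0.56 ± 0.30 at 6 h and 0.64 ± 0.27, 0.86 ± 0.03 and -0.76 ± 0.05 at 24 h.

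For partners on chromosomes other than IX the ratios moved less. RPL23B over RPL23A (chromosome II) gave 2.04 ± 0.22 in LP085-Vc, 1.93 ± 0.23 in LP104-17 and 0.81 ± 0.09 in LP118 at 6 h. As differences in log2 fold change between copy and partner, in the order LP085-Vc at 6 h and 24 h and LP104-17 at 6 h and 24 h, RPS24A gave -2.66, -2.33, -2.56 and -2.03, RPL34A gave -1.97, -1.38, -1.86 and -1.62, RPL23B gave -1.23, -0.65, -1.13 and -0.82, RPL12A gave -0.49, -0.25, -0.55 and -0.79, RPS8B gave -0.38, 0.23, -0.60 and -0.54 and RPS26B gave -0.36, 0.93, -0.44 and -0.93. The 2 values above 0, for RPS8B and RPS26B against LP085-Vc at 24 h, came with a low copy in LP085-Vc. There RPS26B had 34.3, 38.6 and 30.8 CPM at 24 h and 506, 645 and 617 CPM at 6 h, and its ratio to RPS26A was -2.24 ± 0.06 at 24 h and -0.46 ± 0.08 at 6 h. In LP118 RPS26B had 1081, 1020.2 and 1029.5 CPM at 6 h and 550.4, 417 and 426 CPM at 24 h.

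**Figure D5:**
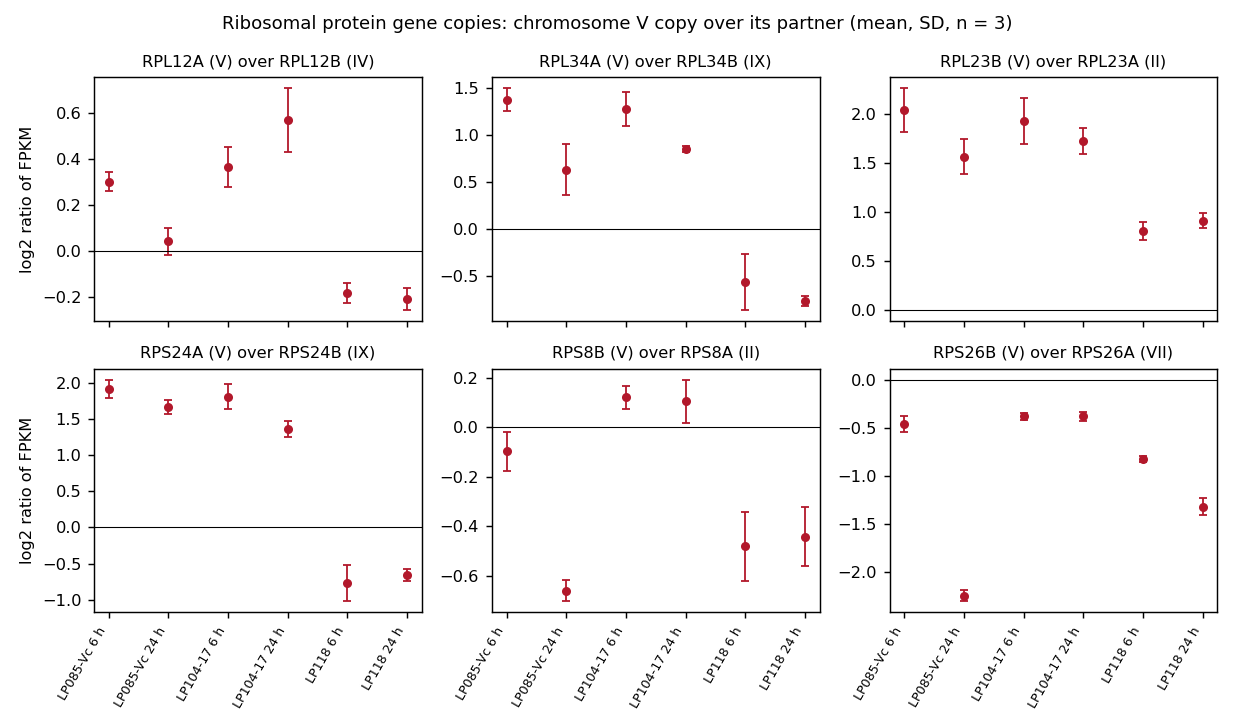
Log2 ratio of FPKM of each chromosome V ribosomal protein gene to its partner copy (mean, with SD as bars, n = 3 libraries) in the 6 groups; each panel has its own vertical scale. In LP118 the ratio is below that of both other strains at 6 h in all 6 pairs, and at 24 h in all pairs except RPS8B and RPS26B, whose LP085-Vc ratios are lower.

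Counting over the whole set, 202 members were below 0 in all 4 comparisons, 26, 23 and 15 were above 0 in 1, 2 and 3 of them, and 19 were above 0 in all 4. That is 6.67% of members, against 29.2% of the 5600 tested genes outside chromosomes V and IX. Between -1.5 and -0.5 in all 4 comparisons lay 65 members (22.8%) and 2.95% of those other genes. The 19 were SNU13, LCP5, YEL053W-A, RPS26B, RPL12A, ALD5, TPA1, NSA2, RPS8B, RPL34A, HIS1, DSE1, ILV1, YEL034C-A, FTR1, PMD1, RNR1, HHY1 and TRP2. Of these, 3 belong to the ribosome assembly list, 4 to the ribosomal proteins and 3 to amino acid synthesis. YEL053W-A and YEL034C-A have no entry in the annotation used. Whether they share reads with a neighbour was not checked, so the 19 may not be 19 separate loci. A value above 0 does not mean that the libraries were apart. At 6 h LP118 libraries overlapped those of LP104-17 for several of the 19, among them ILV1, TRP2, RNR1, RPS8B, YEL034C-A and YEL053W-A.

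Among the 19, some belong to none of those lists. ALD5, a mitochondrial aldehyde dehydrogenase that the mitochondrial list did not hold, had 440.0, 420.2 and 428 CPM in LP085-Vc, 301, 349 and 326 CPM in LP104-17 and 622, 708 and 612 CPM in LP118 at 6 h. At 24 h the levels were 117, 103 and 108 CPM in LP085-Vc, 103, 106 and 98.9 CPM in LP104-17 and 395, 382 and 409 CPM in LP118. LP118 was highest at both times without overlap. DSE1, a protein of daughter cells, had 0.20 at 6 h and 1.97 at 24 h against LP085-Vc, and 0.55 and 1.76 against LP104-17. TPA1, a dioxygenase linked to translation termination, had 0.73 at 6 h and 1.46 at 24 h against LP085-Vc, and 0.43 and 0.48 against LP104-17. Promoter windows were at hand for 17 of the 19, and 8 held GATGAG, 4 AAAATTTT, 2 AGGGG and 5 TGACTC. That is 47.1%, 23.5%, 11.8% and 29.4%, beside 19.9%, 9.16%, 22.0% and 8.12% over all genes. The windows of LCP5 and NSA2 overlap, so the GATGAG and AAAATTTT matches between these genes counted for both. Of 8 windows among the 10 lowest members, 2, 1, 2 and 0 held the 4 motifs in that order. No difference in these shares was tested.

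LP104-17 and LP085-Vc could be tested, since their difference did not choose the chromosome. At 6 h, 48 of the 285 members (16.8%) differed at an adjusted p below 0.05 with edgeR's quasi-likelihood test, beside 11.5% of all tested genes. In LP104-17 19 members were higher (6.67%, beside 5.79% of all tested genes) and 29 lower (10.2%, beside 5.76%). The median of members was near 0, at 0.00. The count moved with single libraries: it was 24 without LP085-Vc replicate 2, 27 without LP104-17 replicate 1, 78 without LP104-17 replicate 2 and 26 without LP104-17 replicate 3, and 19 when the 2 groups were fitted alone. FCY2 was higher by the most among members without overlap, going from 268, 276 and 274 CPM in LP085-Vc to 520.5, 489.9 and 533 CPM in LP104-17, at 0.92 ± 0.09 (edgeR adjusted p = 4.3e-07), followed by LCP5 at 0.65 ± 0.11 (edgeR adjusted p = 5.4e-04). RGI1 was lower by the most, at -1.95 ± 0.21 (edgeR adjusted p = 2.4e-06), with SPI1 at -1.07 ± 0.09 (edgeR adjusted p = 4.7e-08) and MXR1 at -1.08 ± 0.20 (edgeR adjusted p = 8.8e-04). VHR2, NUG1 and UTP7 were also higher, at 0.63 ± 0.13, 0.52 ± 0.08 and 0.44 ± 0.09, and YER079W and YER187W lower, at -0.85 ± 0.15 and -0.85 ± 0.21. Of the 9 stress and energy store members 7 were lower and 0 higher, as were 23 of 29 elsewhere; of the 9 ribosome assembly members 6 were higher, as were 77 of 113 elsewhere.

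At 24 h, 146 members differed (51.2%, beside 52.6% of all tested genes), with a median of -0.04. In LP104-17 68 were higher (23.9%, beside 25.1%) and 78 lower (27.4%, beside 27.4%). The share of members, 51.2%, was close to that of all genes and is no result about the chromosome. RPS26B was higher by the most, with 34.3, 38.6 and 30.8 CPM in LP085-Vc and 235, 299 and 263 CPM in LP104-17, at 2.94 ± 0.16 (edgeR adjusted p = 1.9e-11). All 6 ribosomal protein members and all 9 ribosome assembly members were higher, as were 121 of 127 and 110 of 113 elsewhere. YAT2, a carnitine acetyltransferase, was lower, with 2706, 2772 and 3044 CPM in LP085-Vc and 1367, 1188 and 1215 CPM in LP104-17, at -1.18 ± 0.10 (edgeR adjusted p = 1.2e-08). GLC3, RGI1, SDD1 and YER053C-A were lower too, at -1.41 ± 0.09, -1.36 ± 0.20, -1.22 ± 0.13 and -1.73 ± 0.18, and RPL12A, NSA2, RPS8B and RPL34A were higher, at 2.46 ± 0.14, 2.2 ± 0.12, 2.2 ± 0.18 and 1.99 ± 0.11. Of 19 mitochondrial members 12 were lower and 0 higher, and elsewhere 24 of 67 were lower and 4 higher.

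From 6 h to 24 h, 218 members changed in LP085-Vc, 209 in LP104-17 and 178 in LP118, in edgeR's test. Of all tested genes 76.2%, 70.9% and 57.1% changed. LP085-Vc had 103 rises (36.1% of members, beside 37.9% of all tested genes) and 115 falls (40.4%, beside 38.3%). LP104-17 had 94 rises (33.0%, beside 35.2%) and 115 falls (40.4%, beside 35.7%). LP118 had 86 rises (30.2%, beside 26.6%) and 92 falls (32.3%, beside 30.5%). The shares of members, 76.5%, 73.3% and 62.5%, were near those of all genes.

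UTR2, a cell wall enzyme that links chitin to glucan, fell in every strain. It had 659, 640.4 and 644 CPM at 6 h and 21.0, 21.2 and 18.4 CPM at 24 h in LP085-Vc, 819, 918 and 822 CPM and then 49.9, 46.1 and 47.0 CPM in LP104-17, and 127, 144 and 135 CPM and then 27.0, 23.0 and 28.1 CPM in LP118. Its changes were -5.00 ± 0.10 (edgeR adjusted p = 1.5e-18), -4.16 ± 0.10 (edgeR adjusted p = 1.4e-17) and -2.38 ± 0.10 (edgeR adjusted p = 1.7e-13). HIS1 also fell in all 3, at -3.22 ± 0.10 in LP085-Vc (edgeR adjusted p = 4.4e-16), -3.46 ± 0.10 in LP104-17 (edgeR adjusted p = 2.2e-16) and -1.42 ± 0.09 in LP118 (edgeR adjusted p = 1.8e-10). All 6 ribosomal protein members fell in each strain, with medians of -2.81, -1.03 and -0.66, close to -2.59, -1.04 and -0.70 elsewhere. Of the 9 ribosome assembly members all fell in LP118, where 101 of 113 elsewhere fell and 0 rose. In LP104-17 4 members rose and 3 fell, with a median of 0.03, while elsewhere 76 rose and 12 fell, with a median of 0.59. In LP085-Vc 2 members rose and 6 fell, beside 12 and 77 elsewhere.

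SIT1 rose in all 3 strains, at 3.66 ± 0.11 in LP085-Vc (edgeR adjusted p = 1.8e-16), 3.82 ± 0.11 in LP104-17 (edgeR adjusted p = 1.4e-16) and 0.54 ± 0.10 in LP118 (edgeR adjusted p = 1.1e-04). YAT2 rose by 4.65 ± 0.12, 3.48 ± 0.11 and 1.21 ± 0.11 (edgeR adjusted p = 3.1e-17, 1.3e-15 and 3.1e-08). SPI1 rose by 1.93 ± 0.09, 2.97 ± 0.09 and 2.52 ± 0.10, and SHC1, an activator of chitin synthesis, by 3.98 ± 0.13, 3.11 ± 0.13 and 2.23 ± 0.17. GPP2 fell at -3.84 ± 0.09 in LP085-Vc, fell at -2.78 ± 0.08 in LP104-17, and rose at 0.99 ± 0.08 in LP118 (edgeR adjusted p = 4.0e-18, 2.3e-16 and 2.4e-09). PHM8 likewise fell at -0.61 ± 0.10 and -0.88 ± 0.10 and rose at 2.49 ± 0.13 (edgeR adjusted p = 2.1e-05, 2.9e-07 and 5.4e-12). YER053C-A rose in each strain, at 4.90 ± 0.23, 4.25 ± 0.26 and 4.08 ± 0.42. At 6 h it had 3.43, 4.42 and 0.90 CPM in LP104-17 and 0.80, 1.04 and 0.38 CPM in LP118, so its rises there start from few reads. In LP118 YER158C rose as well, at 2.38 ± 0.15, while MYG1 and LSM5, which takes part in messenger RNA decay and splicing, fell at -1.67 ± 0.08 and -1.15 ± 0.16. LSM5 overlaps another annotated gene, and whether counting used the strand is not given in the sources used here. Differences between LP118 and another strain in these changes were not tested, since they combine the contrasts that chose the chromosome.

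The change over time differed between LP104-17 and LP085-Vc in 86 members (30.2%, beside 33.1% of all tested genes), in edgeR's interaction test. In LP104-17 it was higher in 53 (18.6%, beside 17.8%) and lower in 33 (11.6%, beside 15.3%). All 6 ribosomal protein members were among the 53, as were 119 of 127 elsewhere. RPS26B fell by 4.09 on the log2 scale in LP085-Vc and by 1.28 in LP104-17, a difference of 2.81 ± 0.22 (edgeR adjusted p = 1.1e-08). GCN4 differed by 0.53 ± 0.16 (edgeR adjusted p = 0.019): it went from 1248, 1259.5 and 1406 to 1221, 1656 and 1275 CPM in LP085-Vc and from 1686, 1289 and 1526 to 2369, 2469 and 2033 CPM in LP104-17.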

How the data were processed

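RNA was taken with Trizol and treated with DNase I on a column, and Illumina libraries were made, per the labels' protocols. The submitters' processing notes name the aligner Bowtie2 (version 2.2.5) and the yeast build R64. No source used here names the counter, its gene models or whether it read the strand. The deposited tables give a raw count for each of 6600 genes and library, made by the authors, and FPKM values that the authors scaled by gene length and library total, per the file headers. For LP085-Vc at 6 h replicate 3 the header of the FPKM column repeats the name of the count column. Its values were taken as FPKM, and the FPKM ratios of that group rest on this reading.

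Counts of 18 libraries entered edgeR 4.0.16 in R 4.3.3 with TMM scaling, the 6 group means and a quasi-likelihood test. A filter of edgeR (10 counts, 15 in total) kept 6131 genes and removed 469, and Benjamini-Hochberg adjustment over all 6131 used 0.05. Library totals of 5117869 to 7548113 counts set the precision. FPKM served the ratios between gene copies and an alternative in limma 3.58.1; DESeq2 1.42.0 was another alternative. Tables and figures used Python 3.11.15, pandas 2.3.3, numpy 2.4.6 and matplotlib 3.10.9. The test was checked on simulated counts. Chromosomes were read from gene identifiers, which gave the RefSeq chromosome for 5898 of 5898 genes compared; 683 identifiers had no RefSeq entry.

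Genes named are the 12 members above 0 in all 4 LP118 comparisons with the highest smallest value, the 10 lowest in all 4, up to 5 called in each direction of a tested comparison without overlap of libraries, all members of the role lists, and the end genes; members needed 10 CPM in their highest group. The other 7 members above 0 in all 4 comparisons, and the genes of the role lists given values, were picked from these with their values seen. The members, role lists (written from general knowledge) and tests were chosen with earlier results of these data known.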

Additional observations from a re-analysis of the deposited data

Results flagged for a closer look

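Members whose change from 6 h to 24 h differed between LP104-17 and LP085-Vc, by edgeR's interaction test with its adjusted p, deserve a second look for the size of that difference. Values are log2 differences, LP104-17 minus LP085-Vc, ± SE. RPS26B differed by 2.81 ± 0.22 (edgeR adjusted p = 1.1e-08), with -1.28 in LP104-17 and -4.09 in LP085-Vc. RPL12A differed by 2.1 ± 0.19 (edgeR adjusted p = 7.2e-08), with -0.75 in LP104-17 and -2.85 in LP085-Vc. RPS8B differed by 1.92 ± 0.24 (edgeR adjusted p = 3.7e-06), with -1.07 in LP104-17 and -2.99 in LP085-Vc. NSA2 differed by 1.78 ± 0.16 (edgeR adjusted p = 7.2e-08), with 0.36 in LP104-17 and -1.42 in LP085-Vc. RPS24A differed by 1.69 ± 0.24 (edgeR adjusted p = 1.7e-05), with -1.07 in LP104-17 and -2.76 in LP085-Vc. YAT2 differed by -1.17 ± 0.15 (edgeR adjusted p = 4.9e-06), with 3.48 in LP104-17 and 4.65 in LP085-Vc. YER175W-A differed by -1.1 ± 0.36 (edgeR adjusted p = 0.023), with -0.72 in LP104-17 and 0.38 in LP085-Vc. UBP5 differed by -1.07 ± 0.18 (edgeR adjusted p = 1.1e-04), with 1.04 in LP104-17 and 2.11 in LP085-Vc. HHY1 differed by -1.02 ± 0.35 (edgeR adjusted p = 0.033), with 0.79 in LP104-17 and 1.81 in LP085-Vc. TIM9 differed by -0.87 ± 0.27 (edgeR adjusted p = 0.019), with 1.90 in LP104-17 and 2.77 in LP085-Vc. The difference was above 0 for RPS26B, RPL12A, RPS8B, NSA2 and RPS24A and below 0 for the other 5, while the changes within LP104-17 went in either direction. RPS26B, RPL12A, RPS8B and RPS24A each have a near-identical copy, so reads may be shared between copies. YER175W-A, HHY1 and TIM9 lost the call in some of the settings described under the processing.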

How the results depend on the processing

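Medians of members in LP118 stayed below 0 in every alternative run. Against LP085-Vc at 24 h the median was -0.86 with limma on log2(FPKM + 1), -0.88 with log2(FPKM + 0.1), -1.02 with only the groups compared, -1.04 for members with a summed count of 1800 or more and -0.87 as a mean. Against LP104-17 at 6 h it was -1.01 and -1.06 with the FPKM settings. Against LP104-17 at 24 h it was -0.91 and -0.93 with them, -0.95 over members matched to RefSeq and -0.92 as a mean. Leaving out 1 library at a time gave -0.99 to -0.91 and -1.07 to -0.98 against LP085-Vc at 6 h and 24 h, and -1.0 to -0.92 and -0.98 to -0.94 against LP104-17. The cause of these shifts was not tested.

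The count of members called between LP104-17 and LP085-Vc at 6 h was 19 with only the groups compared, which leaves fewer residual degrees of freedom, and 24 to 78 without 1 library. Counts of the other comparisons stayed within 1.5 times. Single genes lost their call in 20 cases: YER079W with only the groups compared, HHY1 with that setting, with FPKM and without 1 library, TIM9 with FPKM and without 1 library, and YER187W and YER175W-A without 1 library. No called value changed sign.

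Replicate numbers did not pair the samples: deviations of same-numbered libraries correlated at -0.377 to 0.646 and passed 0.1 in 10 of 45 pairs. With the replicate block the called members were 47 and 145 between LP104-17 and LP085-Vc at 6 h and 24 h, 219, 207 and 177 over time and 83 for the interaction. Genes near the count minimum rest on few reads, and identifiers without a RefSeq entry could not be placed.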
